A study of Sus scrofa with 8 samples.

Results

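The genes described here are the transcription factors that make and keep skeletal muscle, and myostatin, the secreted factor that limits its growth: MYOD1, MYOG, MYF5 and MYF6, MEF2A, MEF2C and MEF2D, and MSTN. They were named as a set of 8 genes, and their probe sets were taken where GEO's platform annotation gives exactly 1 gene symbol equal to a member. A probe set is a group of array probes that report 1 transcript. This rule took 10 of the 24123 probe sets on the arrays, and they covered 6 of the 8 genes. MYOG and MEF2C had no such probe set and were not analysed here.

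Skeletal muscle of Korean native pigs was compared with that of Yorkshire pigs, to find genes expressed differently between these breeds. Total RNA of the longissimus dorsi, a back muscle sampled between the seventh and the ninth rib, was measured on 1 biotin-labelled Affymetrix array per animal sample. The Korean native pigs (4 arrays) were 7 months old and the Yorkshire pigs (4 arrays) 6 months old. All were raised alike, per the labels, and no treatment or engineered allele is recorded for either breed. Breed and age therefore cannot be told apart. The labels call the arrays biological replicates. They do not say in other words that each came from a separate animal. The tests below therefore set a breed difference against the spread between these samples, which may not be that between animals.

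MYOD1, MYF5, MYOG and MYF6 are basic helix-loop-helix proteins that pair with E proteins, bind short E-box sequences and can turn other cells into muscle. In the embryo MYF5 and MYOD1 commit cells to the muscle lineage and MYOG drives their differentiation, while MYF6, also called MRF4, is the member that mature fibres keep expressing in rodents. MEF2 proteins are MADS-box factors that act with them on muscle genes, and in adult muscle they answer to calcium signals through class II histone deacetylases and calcineurin. MSTN is a member of the TGF-beta family made by muscle fibres. It signals through activin receptors and SMAD proteins, and its loss in cattle gives heavily muscled animals.

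The tissue label fitted its defining genes. Of 10 muscle fibre markers 7 were tested, including the creatine kinase gene CKM and the fast troponin gene TNNC2, and the lowest signal of any of them on any array was 14914, for the fast myosin gene MYH2. The median signal of all probe sets was 135.8 to 185.3 per array. Negative control probe sets, which match no pig transcript, had a 95th percentile of 91.5. On 2 arrays the control probe sets stood apart: the 3' signal of actin, EF1A and GAPDH exceeded the 5' signal by 3.37 log2 units on Korean native pig 1 and 3.07 on Yorkshire 3, against 0.88 to 1.74 on the other 6. For bacterial transcripts spiked in before labelling the ratio was 3.42 and 2.03 on these arrays and 0.63 to 1.81 on the others. It was taken after adding 32 to each signal, while nothing was added for actin, EF1A and GAPDH. The hybridisation controls, added after labelling, were bright on replicates 1 and 3 of both breeds (13.41 to 13.70 log2 units) and dim on replicates 2 and 4 (12.48 to 12.80). The changes of the members' tested main probe sets are given below with and without the first pair of arrays and within each class of hybridisation controls.

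The members spanned a wide range of signal in adult muscle, and MYF6, MEF2A and MEF2D were the brightest. Their brightest probe sets averaged signals of 3429, 3213 and 2422 over the 8 arrays, at or above the 90.3rd percentile of all probe sets on each array. MSTN and MYOD1 were intermediate at 610.5 and 435, and MYF5 was lowest at 151. The order is one of array signals: probe sets differ in how strongly they bind their transcripts, so it does not rank transcript numbers.

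MYF6 and MEF2A, and MSTN and MYOD1, did not differ beyond their spread. The lead of MEF2A over MEF2D depended on the arrays of high 3'/5' ratio, while the mean order was the same without them. MYF6 exceeded MEF2A on 5 of the 8 arrays, by a mean of 0.058 ± 0.31 (SD, n = 8 arrays). This is on the scale log2(signal + 32), used from here on for all but the control probe sets. MEF2A exceeded MEF2D on 6 of 8, by 0.35 ± 0.66. MEF2D was the highest of all members on Korean native pig 1 and Yorkshire 3, and over the other 6 arrays MEF2A exceeded it on every one, by 0.20 to 1.01. MSTN exceeded MYOD1 on 5 of 8 arrays, by 0.25 ± 1.40, and on 5 of the same 6, by 0.81 ± 1.12. MEF2D lay above MSTN on all 8 arrays, by 2.27 ± 1.17. MYOD1 lay above MYF5 on 7 of 8, by 1.23 ± 0.81. In Korean native pigs MEF2A came before MYF6, and in Yorkshire pigs MYOD1 came before MSTN.

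**Figure D1:**
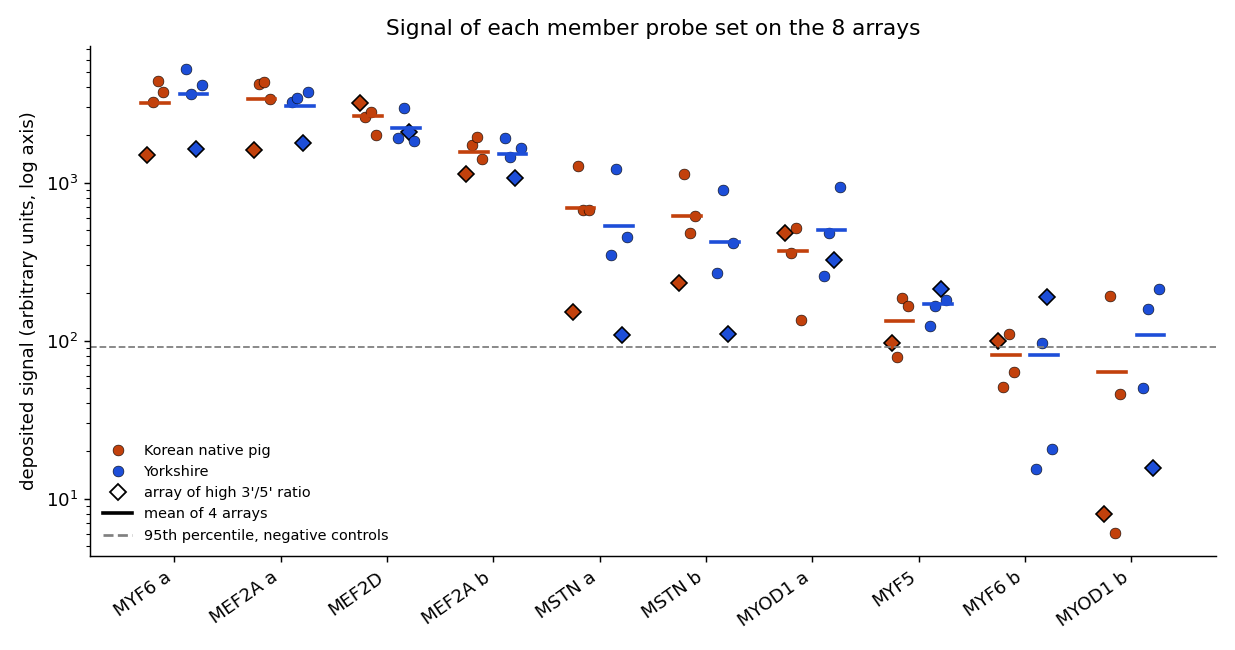
Deposited signal (log axis) of the 10 member probe sets on each array, Korean native pig left and Yorkshire right within each probe set; bars are means of 4 arrays, diamonds the arrays of high 3'/5' ratio, the dashed line the 95th percentile of negative controls at 91.5, and a and b the brighter and dimmer probe set of a gene. MYF6 a, MEF2A and MEF2D lie highest, MYF5 lies near the line, and the second probe sets of MYF6 and MYOD1 straddle it.

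No member differed between the breeds beyond the spread between arrays. Of the 8 member probe sets that passed the filter on dim probe sets, 0 passed an adjusted p of 0.05 in the limma fit over all 14399 tested probe sets, of which 0% passed. At an unadjusted p under 0.05 there were 0 of 8 against 3.96% of all, and the breeds failed to overlap in 0 of 8 against 2.56% of all. All 8 had limma adjusted p = 0.999. The filter removed the dimmest 40% of probe sets, and 2 member probe sets, the second ones of MYF6 and MYOD1, fell below it. Among the 6 genes, 3 had a change above 0 and 3 below. The median log2 change, Korean native pig minus Yorkshire, was -0.032 over the 6 genes and -0.00269 over all 5331 tested genes.

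**Figure D2:**
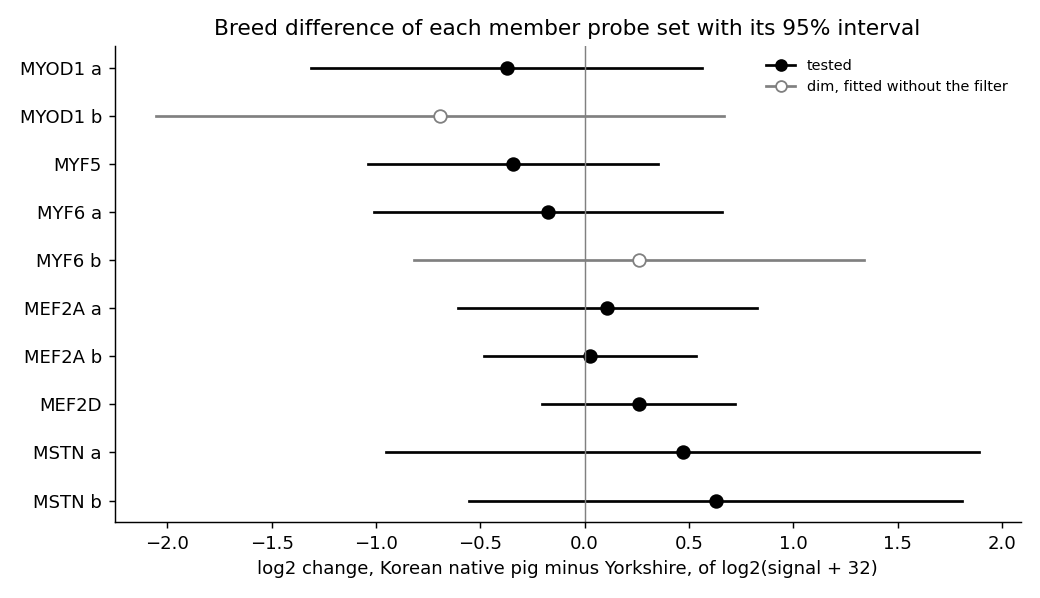
Log2 change of each member probe set, Korean native pig minus Yorkshire, on the scale log2(signal + 32), with its 95% interval from limma (4 arrays per breed); open points are the 2 dim probe sets, fitted without the filter. All 10 intervals include 0, the narrowest belonging to MEF2D (-0.20 to 0.72) and the widest of a tested probe set to MSTN (-0.95 to 1.89).

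MYF6 was the brightest of the myogenic factors. Its main probe set had signals of 1495, 3215, 4389 and 3717 in Korean native pigs 1 to 4, against 5221, 3625, 1629.5 and 4137 in Yorkshire pigs 1 to 4. The breeds overlapped, and in each the array of high 3'/5' ratio was the lowest, well below the other 3. The means were 3204 ± 1237 in Korean native pigs, against 3653 ± 1504 in Yorkshire pigs (SD, n = 4), a log2 change of -0.17 (SE 0.38, 95% interval -1.01 to 0.66; exact two-sided permutation p = 0.6). With 4 arrays per breed that test cannot go below 0.0286.

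Without Korean native pig 1 and Yorkshire 3, MYF6 averaged 3774 ± 589 in Korean native pigs, against 4328 ± 815 in Yorkshire pigs (SD, n = 3), and the log2 change was -0.19 (SE 0.22; limma adjusted p = 0.985). Leaving out Korean native pig 1 gave 0.15 and leaving out Yorkshire 1 gave 0.036, both of the other sign, and leaving out Yorkshire 3 gave -0.52. It was -0.19 among arrays of bright hybridisation controls and -0.16 among those of dim controls. A second MYF6 probe set was made from the same sequence record, with signals of 98.6, 50.8, 110.4 and 63.5 in Korean native pigs, against 15.5, 96.5, 189.8 and 20.5 in Yorkshire pigs. On 4 of the 8 arrays it lay below the negative control limit of 91.5. Its change of 0.26 (SE 0.50, fitted without the filter) has the other sign, and its values do not follow those of the main probe set.

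MYOD1, the founding member of the family, which in the adult marks activated satellite cells and fast fibres in rodents, varied more than most genes. Its main probe set had signals of 478, 358, 512 and 135 in Korean native pigs 1 to 4, against 258, 482, 324 and 932 in Yorkshire pigs 1 to 4. The lowest array was Korean native pig 4 and the highest Yorkshire 4, 6.89-fold apart, and the other arrays of the breeds were interleaved. The means were 371 ± 170.3 in Korean native pigs, against 499 ± 304 in Yorkshire pigs (SD, n = 4). The log2 change was -0.37 (SE 0.43, 95% interval -1.31 to 0.56; exact permutation p = 0.543).

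That value rested on replicate 4 of each breed. Leaving out Korean native pig 4 gave 0.00358 and leaving out Yorkshire 4 gave -0.034. Within the arrays of bright hybridisation controls the MYOD1 change was 0.71 (SE 0.32), with both Korean native pig arrays above both Yorkshire arrays. Within the arrays of dim controls it was -1.46 (SE 0.48), with both Korean native pig arrays below both Yorkshire arrays. Neither passed (limma adjusted p = 1.00 and 0.997), and the difference between these classes was not tested. Leaving out any one of the other 6 arrays gave values between -0.61 (Yorkshire 1) and -0.34 (Yorkshire 2), and leaving out both arrays of high 3'/5' ratio gave -0.67.

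The second MYOD1 probe set had signals of 7.96, 192, 6.09 and 45.7 in Korean native pigs, against 50.01, 159, 15.5 and 211 in Yorkshire pigs. It was below 91.5 on 5 of 8 arrays, always dimmer than the main one, and its ranks differed from those of the main probe set: Korean native pig 3 was second highest on the main probe set and lowest here. Its change was -0.69 (SE 0.63, fitted without the filter).

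MYF5, which marks satellite cells, the stem cells of adult muscle, was the dimmest member. Its probe set had signals of 96.9, 78.7, 186 and 166 in Korean native pigs 1 to 4, against 124, 166, 210.4 and 181 in Yorkshire pigs 1 to 4. The values lay near the middle of each array, at the 47.0th percentile on average, and Korean native pig 2 lay below the negative control limit. The means were 132 ± 52.2 in Korean native pigs, against 170.4 ± 36.2 in Yorkshire pigs (SD, n = 4). The log2 change was -0.34 (SE 0.32, 95% interval -1.04 to 0.35; exact permutation p = 0.257), and -0.17 without Korean native pig 2. Without both arrays of high 3'/5' ratio it was -0.15 (SE 0.38; limma adjusted p = 0.989), with means of 144 ± 57.1 in Korean native pigs, against 157 ± 30.1 in Yorkshire pigs (SD, n = 3). Bright arrays alone gave -0.21 and dim arrays alone -0.47. In a piece of whole muscle, fewer cells of a type and less RNA per cell cannot be told apart.

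MYF5 and MYF6 are direct neighbours in the pig genome, in the gene order of the Sscrofa11.1 annotation. Their signals went separate ways: MYF6 was lowest on Korean native pig 1 and Yorkshire 3, while MYF5 was second lowest on the first of these and highest on the second.

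MEF2A was measured by 2 bright probe sets, both lowest on the arrays of high 3'/5' ratio. The main one had signals of 1595, 4201, 4358 and 3392 in Korean native pigs 1 to 4, against 3217, 3417, 1768 and 3754 in Yorkshire pigs 1 to 4. The array of high 3'/5' ratio was the lowest of each breed, as for MYF6. The means were 3386 ± 1267 in Korean native pigs, against 3039 ± 876 in Yorkshire pigs (SD, n = 4), a log2 change of 0.11 (SE 0.33, 95% interval -0.61 to 0.83; exact permutation p = 0.629). The other probe set had 1128, 1737, 1938 and 1399 in Korean native pigs, against 1909, 1452, 1076 and 1661 in Yorkshire pigs, with a change of 0.025 (SE 0.23). Yorkshire 1 was its second highest array but only sixth on the main probe set.

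Without the arrays of high ratio the main MEF2A probe set spanned 1.35-fold over 6 arrays, against 2.73-fold over all 8. Its change was then 0.19 (SE 0.20), from means of 3983 ± 518 in Korean native pigs, against 3463 ± 272 in Yorkshire pigs (SD, n = 3). Bright arrays alone gave 0.14 and dim arrays alone 0.075. With 1 array left out it lay between -0.13 (Yorkshire 3) and 0.43 (Korean native pig 1), and leaving out Korean native pig 2 or 3 gave -0.026 and -0.044. The other MEF2A probe set was below 0 without the same arrays (-0.13, -0.039 and -0.090 for Yorkshire 3 and Korean native pigs 2 and 3).

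MEF2D had the narrowest span over the 8 arrays. Its probe set had signals of 3170.5, 2604, 2784 and 1989 in Korean native pigs 1 to 4, against 1917, 2965, 2103 and 1843 in Yorkshire pigs 1 to 4. All 8 values lay within 1.72-fold, Korean native pig 1 being the highest, and both Yorkshire 2 and Yorkshire 3 lay among the Korean native pig values. The means were 2637 ± 492 in Korean native pigs, against 2207 ± 517 in Yorkshire pigs (SD, n = 4). The log2 change was 0.26 (SE 0.21, 95% interval -0.20 to 0.72; exact permutation p = 0.286), and the upper limit is a level 1.65-fold higher in Korean native pigs. Leaving out 1 array gave values between 0.17 (Korean native pig 1) and 0.41 (Yorkshire 2). Without both arrays of high 3'/5' ratio it was 0.15 (SE 0.25; limma adjusted p = 0.985), with means of 2459 ± 417 in Korean native pigs, against 2241 ± 628 in Yorkshire pigs (SD, n = 3). Bright arrays alone gave 0.56 and dim arrays alone -0.038.

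MSTN had the widest spread between arrays of the tested members. Its main probe set had signals of 151, 1271, 673 and 670.2 in Korean native pigs 1 to 4, against 347, 1214, 108.6 and 449 in Yorkshire pigs 1 to 4. The highest array of each breed was replicate 2 and the lowest was the array of high 3'/5' ratio, with 8.42-fold between them in Korean native pigs and 11.2-fold in Yorkshire pigs. A second probe set, made from the same reference transcript, had 232, 1126, 479.6 and 609.8 in Korean native pigs, against 267, 893, 109.6 and 415 in Yorkshire pigs. It ranked the arrays in the same order except that Korean native pigs 3 and 4, nearly equal on the main probe set, changed places.

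The MSTN means were 691 ± 458 in Korean native pigs, against 529.7 ± 478 in Yorkshire pigs on the main probe set, and 612 ± 377 in Korean native pigs, against 421 ± 339 in Yorkshire pigs on the second (SD, n = 4). The log2 changes were 0.47 (SE 0.65, 95% interval -0.95 to 1.89; exact permutation p = 0.571) and 0.63 (SE 0.54, 95% interval -0.55 to 1.81; exact permutation p = 0.371). The upper limits of these intervals are a 3.71-fold and a 3.51-fold higher level in Korean native pigs. Leaving out Yorkshire 3 gave -0.058 on the main probe set and 0.18 on the second. On the main one, leaving out Korean native pig 2 gave 0.087 and leaving out Korean native pig 1 gave 1.03, and on the second, leaving out Yorkshire 2 gave 1.08.

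Without both arrays of high ratio MSTN averaged 871 ± 346 in Korean native pigs, against 670.0 ± 474 in Yorkshire pigs (SD, n = 3), a log2 change of 0.50 (SE 0.43; limma adjusted p = 0.984). The exact permutation p was 0.4, where 3 against 3 arrays cannot go below 0.1. Bright arrays alone gave 0.64 on the main probe set and 0.84 on the second, and dim arrays alone 0.30 and 0.42.

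The members differed in how they stood on the arrays of high 3'/5' ratio. Korean native pig 1 and Yorkshire 3 were the lowest of the 8 arrays for 5 of the 8 tested member probe sets, those of MYF6, MEF2A and MSTN, while this held for 7.23% of all tested probe sets. For 0 of 8 they were the highest, against 7.63% of all. The mean of these 2 arrays minus that of the other 6 was -1.34 for MYF6, -1.12 and -0.59 for the MEF2A probe sets, and -2.18 and -1.64 for those of MSTN. Of all tested probe sets 0.396% had a lower value than the main MSTN probe set, and 1.97% a lower one than MYF6. MYOD1, MYF5 and MEF2D stood at 0.038, -0.0080 and 0.16, and the median of all tested genes was 0.072. The second probe sets of MYOD1 and MYF6, too dim to be tested, did not follow their main ones. They stood at -1.42 for MYOD1 and 1.01 for MYF6. The part of the 3'/5' ratio in these differences was not tested, and the positions of the probes along their transcripts were not used here.

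Over the other 6 arrays MSTN followed the ratio in part. The 2 arrays of lowest ratio, Korean native pig 2 at 0.88 and Yorkshire 2 at 0.95, had the highest MSTN signals, and Yorkshire 1, the highest of the remaining 6 at 1.74, had the lowest of the 6. The 3 in between did not follow it: Yorkshire 4 at a ratio of 1.11 had a signal of 449, below 670.2 on Korean native pig 4 at 1.21 and 673 on Korean native pig 3 at 1.41. MYF6 did not share this: Yorkshire 1 had its highest signal.

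**Figure D3:**
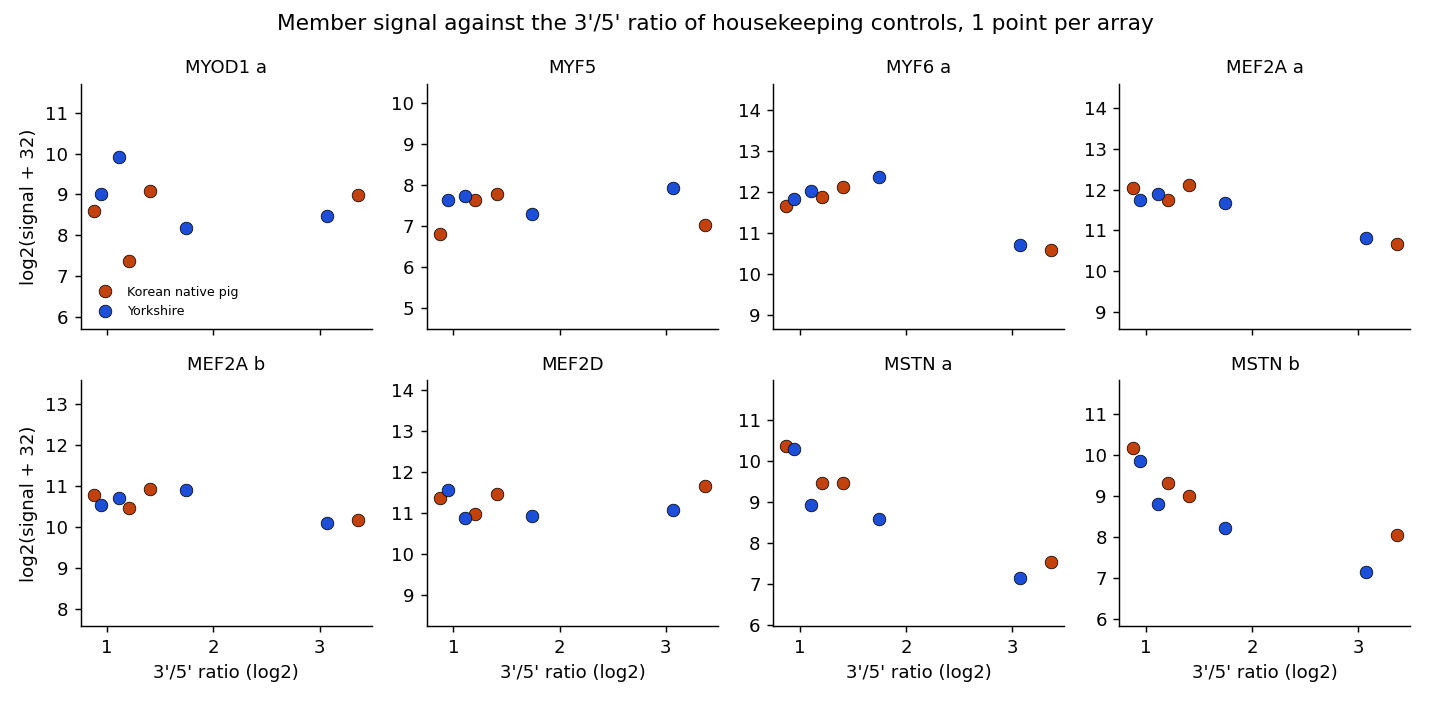
Log2(signal + 32) of the 8 tested member probe sets against the log2 3'/5' ratio of housekeeping controls, 1 point per array, with the same 6-unit height in every panel. The 2 arrays at ratios of 3.07 and 3.37 lie lowest for MYF6 a, both MEF2A and both MSTN probe sets. They are not the lowest pair for MYOD1, MYF5 and MEF2D, where 1 of them is the highest for MYF5 and the other for MEF2D. MSTN is highest on the 2 arrays of lowest ratio.

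The spread within breeds differed widely among the members. Its SD on the log2 scale was 1.25 for MSTN, higher than in 99.2% of tested probe sets, 0.77 for MYOD1 (90.9%), 0.70 for MYF6 (87.4%) and 0.58 for MEF2A (78.4%). MYF5 at 0.39 and MEF2D at 0.29 were at the 48.9th and 27.3rd percentile. Without both arrays of high ratio the SD was 0.24 for MYF6 and 0.16 for MEF2A, at the 23rd and 6.75th percentile of that fit, both below MEF2D at 0.32 (40.5th). MSTN at 0.74 and MYOD1 at 0.87 were still at the 91st and 95.1st percentile.

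The genes with the most similar profiles over the 8 arrays were found by Pearson's r among the 5331 tested genes. For MSTN they were COPS2, a subunit of the COP9 signalosome (r = 0.976, Spearman's rho = 0.952), and PRKAR2A, a regulatory subunit of protein kinase A (r = 0.970, rho = 0.952). Without the arrays of high ratio (n = 6) r was 0.926 and 0.944. For MYF6 they were VMA21 (r = 0.95, rho = 0.833) and ABTB2 (r = 0.940, rho = 0.690), with r = 0.410 and 0.494 over the 6 arrays. For MEF2A they were the kinesin light chain KLC1 (r = 0.981, rho = 0.952) and the proteasome subunit PSMC2 (r = 0.963, rho = 0.881), or 0.716 and 0.850.

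For MEF2D these genes were FAM136A (r = 0.955, rho = 0.905) and PKIG (r = 0.898, rho = 0.881), for MYOD1 the ubiquitin ligase SIAH2 (r = 0.964, rho = 0.929) and TMEM98 (r = 0.961, rho = 0.786), and for MYF5 the angiotensinogen gene AGT (r = 0.945, rho = 0.881) and CCDC24 (r = 0.939, rho = 0.833). The closest of 5331 profiles over 8 arrays is always near: the median best r of a tested gene was 0.959. These values describe 8 arrays that were scaled alike and of which 2 stand apart in their 3'/5' ratio.

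Genes that act around the members were taken from 6 lists. Of their 47 different tested genes 0 passed the adjusted threshold of the limma fit in either direction. Of these genes 1, TGFBR1, had an unadjusted p under 0.05, against 3.96% of all tested probe sets, a share of probe sets and not of genes. The partners and inhibitors of the myogenic factors had 6 tested genes of 14, with 2 above 0 and 4 below and a median log2 change of -0.042. The E protein TCF4 stood at -0.42 (SE 0.36), with 4 of the 8 arrays below the negative control limit. The ID proteins, which bind E proteins and keep them from the myogenic factors, stood at -0.062 for ID1, 0.083 for ID3 and 0.32 for ID4. ID4 lay below that limit on 1 array. Of 18 satellite cell genes 6 were tested, 2 above and 4 below 0, with a median of -0.11. NCAM1, a cell adhesion gene, was at 0.14, SDC4 at -0.20, the chemokine receptor CXCR4 at 0.49 and CD82 at -0.15. SDC4 lay below the negative control limit on 2 arrays.

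Of 23 regulators and cofactors of MEF2, 11 were tested, 5 above and 6 below 0, with a median of -0.062. HDAC5, a class II histone deacetylase that holds MEF2 inactive, averaged 409 ± 89.9 in Korean native pigs, against 691 ± 316 in Yorkshire pigs (SD, n = 4), a change of -0.61 (SE 0.33). The calcineurin subunits PPP3CA and PPP3CB were at 0.018 and -0.062. CAMK2G, a calcium-dependent kinase of those that release class II deacetylases from MEF2, was at -0.39 (SE 0.19).

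Of 21 genes of the myostatin and activin pathway 11 were tested, 5 above and 6 below 0, with a median of -0.096. The activin subunit INHBA was at -0.096, the myostatin receptor ACVR2B at -0.33 (SE 0.40) and the type I receptor ACVR1B at 0.14. ACVR2B lay below the negative control limit on 2 arrays. TGFBR1, another type I receptor that myostatin can use, had signals of 1141, 926, 1586 and 1107 in Korean native pigs, against 839.8, 729, 777 and 603 in Yorkshire pigs. All Korean native pig values lay above all Yorkshire values, with a log2 change of 0.65 (SE 0.21, limma adjusted p = 0.999). Bright arrays alone gave 0.71 and dim arrays alone 0.59. Of its other probe sets, both too dim to be tested, one stood at 0.51 and the other at 0.18, and the breeds overlapped in each.

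BMP1, a protease that frees myostatin from its propeptide, is named for its values: the Korean native pigs, at 114.9 to 148, lay below the Yorkshire pigs, at 165 to 225 (change -0.45, SE 0.26). A second BMP1 probe set was at -0.20 with overlap. The breeds thus failed to overlap in 2 of the 47 different genes tested in the 6 lists, or in 4.26%, against 2.56% of all tested probe sets. The first share counts each gene by its brightest tested probe set and the second counts every tested probe set, so they are unlike measures.

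Targets of the myogenic factors and MEF2 had 9 tested genes of 18, with 3 above and 6 below 0 and a median of -0.32. The median was -0.12 without Yorkshire 4, -0.085 after quantile normalisation, -0.0028 on bright arrays alone and -0.083 on dim arrays alone. The creatine kinase gene CKM was at -0.33 and the desmin gene DES at 0.17. CHRNA1, the muscle acetylcholine receptor subunit, was at 0.73 (SE 0.42), with 2 arrays below the negative control limit, and the cell cycle inhibitor CDKN1A at 0.46 (SE 0.39). The lowest value, -1.45 (SE 0.89) for XIRP1, is named for its size. Of 10 regeneration and denervation genes 4 were tested, with a median of -0.13: the embryonic light chain MYL4 at 0.10, GADD45A at -0.33, the TWEAK receptor TNFRSF12A at -0.77 (SE 0.43) and GAP43 at 0.062. GAP43 lay below the negative control limit on 1 array.

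**Figure D4:**
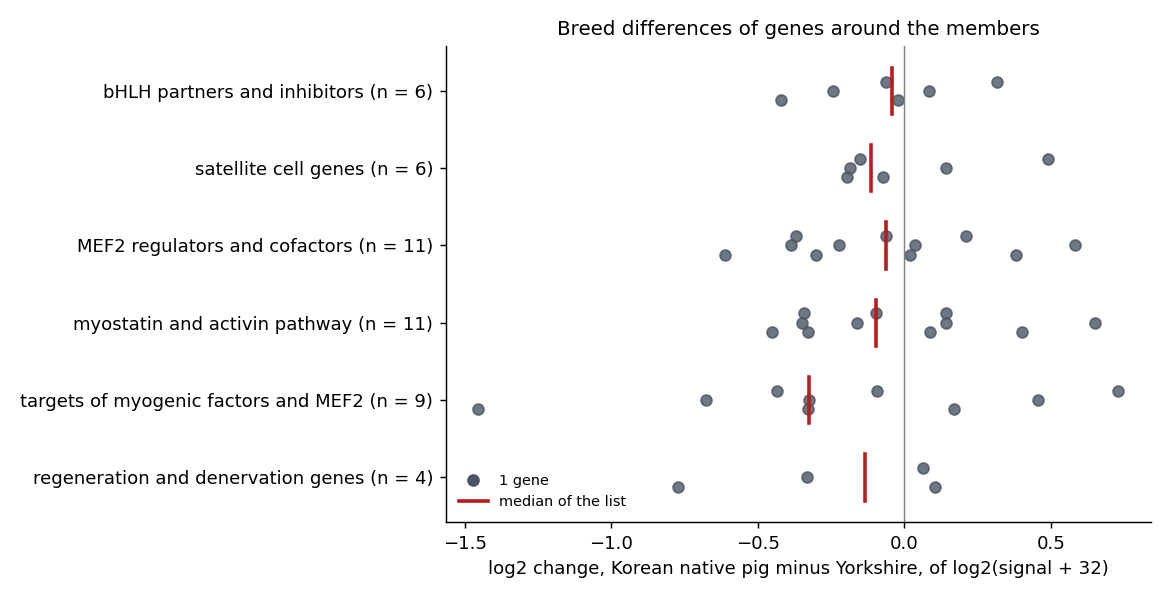
Log2 change, Korean native pig minus Yorkshire, on the scale log2(signal + 32), of each tested gene in 6 lists around the members (points) and the median of each list (red bars). Every list has genes on both sides of 0, and the list medians lie between -0.32 and -0.042.

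Markers of other cells that a muscle piece can hold were measured too, and 6 of the tested ones lay below the negative control limit on at least 1 array, LEP on 3. Summed over tested genes, 5 endothelial markers of 6 gave 3512 to 4399.7 in Korean native pigs, against 3596 to 5388 in Yorkshire pigs, and 4 fibroblast markers of 6 gave 7764 to 12669.9 in Korean native pigs, against 9964 to 16440 in Yorkshire pigs. For 4 adipocyte markers of 6 the Korean native pigs had 3615 to 9633 and the Yorkshire pigs 4289 to 7866, and for 4 smooth muscle markers of 5 the Korean native pigs had 6661 to 11047 and the Yorkshire pigs 7757 to 11627. For 2 macrophage markers of 6 the Korean native pigs had 299 to 1981 and the Yorkshire pigs 375 to 1152. For 2 nerve markers of 4 the Korean native pigs had 976 to 1611 and the Yorkshire pigs 539.8 to 1105. For 3 red cell markers of 4 the Korean native pigs had 928 to 1209 and the Yorkshire pigs 984 to 1163. The summed signals of the breeds overlapped for each list. Median log2 changes were 0.015 for endothelial, -0.26 for fibroblast, -0.55 for adipocyte and -0.35 for smooth muscle markers. They were 0.37 for macrophage, 0.43 for nerve and 0.068 for red cell markers. For muscle fibre markers the median was -0.32, with 6 of 7 below 0, while 49.6% of all tested genes were above 0. On bright arrays alone CKM, MYH7, TNNT3, TNNC2 and MYLPF lay between -0.049 and 0.017, and on dim arrays alone between -0.80 and -0.57. MYH2 was at -0.47 and -0.66 there, and DES at 0.30 and 0.037. Of the adipocyte markers CFD was above 0 at 0.70 (SE 0.35), and the other 3 were below. The myelin gene MBP, named for its values, averaged 862 ± 359 in Korean native pigs, against 399.9 ± 141 in Yorkshire pigs (SD, n = 4), without overlap (log2 change 1.03, SE 0.35, limma adjusted p = 0.999). MBP had 4 probe sets, and only its brightest tested one is given here. S100B, the other of the 2 tested nerve markers, went the other way at -0.17 (SE 0.25), with overlap. The part of these cells in the members' values was not tested.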

How the data were processed

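The deposited intensity of each probe set is on a linear scale, and the submitters' processing notes name GCOS 1.3. The sources used here do not say how probes were summarised or scaled. The mean without the highest and lowest 2% was 500.1 to 500.2 on every array, so changes are relative to the other probe sets of an array. No other value columns were present (0), and no arrays were identical (0 pairs). Detection calls and scanner files were not used, so no other background correction was tried.

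Intensities were transformed to log2(signal + 32), a scale on which dim probe sets change less. Left out were 124 control probe sets and, of the others, the 40% with the lowest mean (a signal below 98.6). The model, from limma 3.58.1 (R 4.3.3), used lmFit and trended eBayes over the 8 arrays with no covariate, Korean native pig minus Yorkshire, with Benjamini-Hochberg adjustment over 14399 probe sets and a threshold of 0.05. Precision is limited by the number of arrays, and log2 changes had a median standard error of 0.283. Single members were also tested by exact two-sided permutation over 70 labellings.

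A gene is represented by its brightest tested probe set with 1 symbol in GEO's platform annotation, which can be old. It gave 1 symbol for 10099 probe sets, several for 198 and none for 13826. Named genes are all members, the first 4 tested genes of each list in written order, and the 2 most similar profiles per member. Others are marked where they appear. Members and lists were chosen with earlier results of these data known. Lists are described by counts and medians, without a test.

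For same-numbered arrays of the breeds the correlations of deviations from the breed means were -0.043, 0.31, 0.10 and 0.054. They were not all above 0.1, and the labels state no pairing, so replicate numbers were not taken as pairs. Alternatives covered pseudocounts, filters, normalisation, blocks and left-out arrays.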

Additional observations from a re-analysis of the deposited data

How the results depend on the processing

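None of the 8 tested member probe sets passed under any of the 22 alternatives run, where the smallest adjusted p of a member value was 0.964. At an unadjusted p under 0.05 there were 0 in the main limma fit and 1 in 1 alternative (MYOD1 within the dim arrays). With the replicate number as a block 1 probe set of 14399 passed, against 0, and no member call changed. Pseudocounts of 16 and 64, the filters, quantile normalisation, centring, the fit without a trend and both blocks kept each member's sign. Signs turned for MYOD1 within the bright arrays (0.71), for MEF2D within the dim arrays (-0.038), and for MYF6 as the mean of its probe sets (0.044) or by its other one (0.26). With 1 array left out the changes ranged from -0.61 to 0.00358 for MYOD1, -0.52 to 0.15 for MYF6, -0.13 to 0.43 and -0.13 to 0.16 for the MEF2A probe sets, and -0.058 to 1.03 for the main MSTN probe set. The cause was not tested. The satellite cell median was 0.035 within the dim arrays and -0.15 to -0.00179 with 1 array left out. The medians of 3 other lists turned above 0 with 1 array left out. These were the partners and inhibitors without Korean native pig 4 (0.053) or Yorkshire 3 (0.00028) and the myostatin pathway without Korean native pig 2 (0.069). The last were the regeneration genes, without Yorkshire 4 (0.14) or Korean native pig 2 (0.024). Within the bright arrays the medians of the myostatin pathway (0.12) and regeneration genes (0.21) were above 0. With arrays centred on their median, those of the partners and inhibitors (0.034) and the MEF2 regulators (0.013) were above 0. In the order by signal, 2 genes changed places in Korean native pigs, 2 in Yorkshire pigs, and 0 to 2 with 1 array left out. With all probe sets of a gene averaged 2 did, at the head of the order: MEF2D stood highest, followed by MEF2A and then MYF6.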
